A study of Mus musculus with 8 samples.

Results

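Keratins are the intermediate filament proteins of epithelial cells, and their genes were followed here through a map of open chromatin in mouse medullary thymic epithelial cells (mTECs), the cells that show peripheral self-antigens to developing T cells. The members were the protein-coding genes of the GENCODE M21 annotation whose symbol is Krt followed by a number, which gave 53 of 21938 protein-coding genes. Of these, 27 lie in the type I cluster on chromosome 11 and 26 in the type II cluster on chromosome 15. The assay was ATAC-seq, which marks accessible chromatin by letting the transposase Tn5 insert sequencing adapters into it. The 8 samples came from thymi of wild-type (wt) BL6N6 mice, a few weeks old. The mTECs were sorted as CD45-negative, Epcam-positive and CDR1-negative cells into the 4 groups Tspan8neg MHCIIlow, Tspan8pos MHCIIlow, Tspan8neg MHCIIhigh and Tspan8pos MHCIIhigh, with 2 biological replicates each, and no treatment or further allele is given for any group. The values used are the positions of the 57124 consensus regions, the places that the authors obtained by merging the called ATAC-seq peaks. This set belongs to all samples together, so a region says that accessible chromatin was called at that place and not in which group. A region open in few cells and one weakly open in many cannot be told apart. The read counts of the regions, and with them the depth of the samples, were not used here, because the names of the count columns match no sample label. How strongly a region was open is therefore not given.

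A keratin filament is built from pairs of 1 type I (acidic) and 1 type II (basic) protein, and the pairs mark the kind of epithelium. Krt8 and Krt18 form the filaments of simple epithelia, Krt5 and Krt14 those of the basal layer of stratified epithelia, and Krt1 and Krt10 those of the layers above it in the skin. Krt6a, Krt6b, Krt16 and Krt17 are induced in wounded epidermis, and the hair keratins build the hair shaft. In the thymus, Krt5 and Krt14 are used as markers of the medulla and Krt8 of the cortex, although single cells can hold both pairs, and late mTECs are known to take up features of cornifying skin cells. In mammals the type II cluster also holds Krt18, which is a type I keratin, and the type I cluster holds the keratin-associated protein (Krtap) genes, which encode matrix proteins of hair.

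The sequences that the results turn on are the stretches before the starts of the pair of simple epithelia, of Krt5 and of Krt10, and 5 whole regions away from the start. All are in the orientation of the gene, 5′ to 3′, on the GRCm38 assembly that underlies mm10. Capitals mark matches to 4 short motifs searched on both strands, which were CAGGAAGT for factors of the ETS family, GGGNGTGG for KLF factors, TGANTCA for AP-1 and TATAAA for the TATA box, the last in start windows on the gene's strand alone. The promoter stretches are from RefSeq (GRCm38.p6), whose promoter table matched 36 of the 53 genes, and each ends before the start of both annotations.
Krt5 promoter stretch, chr15:101712906-101713025, minus strand: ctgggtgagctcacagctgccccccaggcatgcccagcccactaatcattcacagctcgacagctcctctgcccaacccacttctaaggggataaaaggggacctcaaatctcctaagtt
Krt8 promoter stretch, chr15:102004483-102004592, minus strand: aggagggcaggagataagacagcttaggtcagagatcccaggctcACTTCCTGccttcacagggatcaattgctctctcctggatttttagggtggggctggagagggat
Krt18 promoter stretch, chr15:102028060-102028179, plus strand: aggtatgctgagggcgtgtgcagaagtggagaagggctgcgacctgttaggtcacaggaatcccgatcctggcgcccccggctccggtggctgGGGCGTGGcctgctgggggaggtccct
Krt10 promoter stretch, chr11:99389365-99389484, minus strand: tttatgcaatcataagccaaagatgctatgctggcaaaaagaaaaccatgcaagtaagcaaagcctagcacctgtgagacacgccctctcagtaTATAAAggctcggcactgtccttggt
The stretch of Krt5 held none of the motifs. That of Krt8 held the reverse complement of the ETS motif, beginning 65 bases before the end of the stretch, and that of Krt18 the KLF motif, beginning 27 bases before the start. That of Krt10 held the TATA box, beginning 26 bases before the start. Krt14 is not shown, because its RefSeq start lies inside the gene. Krt6a, Krt6b, Krt15, Krt86, Krt80, Krt1, Krt16, Krt222, Krt33a, Krt81, Krt83, Krt17, Krt88, Krt19, Krt35, Krt87 and Krt4 had no entry.

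The 5 whole consensus regions are shown because they were the ones nearest to Krt14, Krt5 and Krt6a on the upstream side beyond the start itself, the one in the intron of Krt8, and the one in the last exon of Krt1.
Krt14 upstream region, chr11:100208414-100208549, minus strand: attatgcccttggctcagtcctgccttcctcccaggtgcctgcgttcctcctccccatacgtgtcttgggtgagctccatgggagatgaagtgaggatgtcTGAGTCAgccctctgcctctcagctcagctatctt
Krt5 upstream region, chr15:101713810-101714018, minus strand: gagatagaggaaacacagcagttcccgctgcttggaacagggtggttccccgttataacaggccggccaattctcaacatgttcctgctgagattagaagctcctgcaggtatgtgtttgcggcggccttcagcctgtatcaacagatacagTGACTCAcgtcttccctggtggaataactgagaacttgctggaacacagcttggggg
Krt6a upstream region, chr15:101695533-101695736, minus strand: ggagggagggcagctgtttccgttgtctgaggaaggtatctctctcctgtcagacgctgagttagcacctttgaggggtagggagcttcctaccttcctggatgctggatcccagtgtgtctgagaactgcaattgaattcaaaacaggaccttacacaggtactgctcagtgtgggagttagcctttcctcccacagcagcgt
Krt8 intron region, chr15:102003201-102003465, minus strand: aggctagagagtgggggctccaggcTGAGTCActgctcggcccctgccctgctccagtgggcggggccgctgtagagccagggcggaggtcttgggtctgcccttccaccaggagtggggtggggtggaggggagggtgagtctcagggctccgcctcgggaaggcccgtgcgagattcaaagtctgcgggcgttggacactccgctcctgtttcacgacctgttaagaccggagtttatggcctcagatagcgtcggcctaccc
Krt1 last exon region, chr15:101845980-101846196, minus strand: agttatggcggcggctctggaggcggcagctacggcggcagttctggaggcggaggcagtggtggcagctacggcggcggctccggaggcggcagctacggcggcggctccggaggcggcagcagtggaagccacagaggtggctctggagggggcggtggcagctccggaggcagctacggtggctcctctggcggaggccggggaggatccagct
The regions upstream of Krt14 and Krt5 and the one in the intron of Krt8 each held 1 match to the AP-1 motif, beginning at base 102, 153 and 26 of the region. The regions of Krt6a and Krt1 held none of the 4 motifs. The region of Krt1 is a chain of short GGC-rich repeats that encode the glycine-rich tail of the protein.

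A promoter region was a consensus region whose centre lay from 1000 bases upstream to 100 bases downstream of an annotated start. Such a region was found for 11 of the 53 keratin genes (20.8%, 95% Wilson interval 12.0 to 33.5), against a background of 48.6% of all protein-coding genes (10664 of 21938). The intervals cover counting error over genes, which are not replicates of the experiment, so no test was made. The 11 genes were Krt222, Krt10, Krt23, Krt14, Krt16 and Krt17 in the type I cluster, 6 of 27 (22.2%, 10.6 to 40.8), and Krt80, Krt7, Krt5, Krt8 and Krt18 in the type II cluster, 5 of 26 (19.2%, 8.51 to 37.9). The shares of both clusters lay within each other's intervals. With a wider reach, a region over the gene body or within 5 kb of it was found for 30 keratin genes (56.6%), against a background of 74.7% of protein-coding genes. There the clusters stood further apart, with 12 of 27 genes (44.4%) in the type I and 18 of 26 (69.2%) in the type II cluster. Keratin genes were shorter than protein-coding genes at large, with a median length of 6594 against 17425 bases, which shortens the stretch in which a region could fall. The clusters differed in this too, with median lengths of 5674 bases in the type I and 7790 bases in the type II cluster.

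The label of the cells was checked against marker genes in the same map. Of 8 markers of medullary thymic epithelium, 7 had a promoter region, against 48.6% of all protein-coding genes. These were Epcam, Aire, Cd80, Cldn4, H2-Ab1 and the keratins Krt5 and Krt14, which are members of the family itself. Ccl21a had none. Of 4 genes known from cortical thymic epithelium, Ly75, Prss16 and Ctsl had a promoter region and Psmb11 did not. None of 6 thymocyte markers (Cd3e, Cd4, Cd8a, Ptprc, Lck and Rag1) and none of 4 fibroblast markers (Col1a1, Col3a1, Pdgfra and Dcn) had one.

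Promoter regions were found in 5 of 7 role groups of keratins. Each gene was placed in 1 group only, by a list chosen here, and a group name need not cover every epithelium of a gene. Of the 7 genes listed under simple epithelia, 5 had one (71.4%, 35.9 to 91.8), namely Krt7, Krt8, Krt18, Krt23 and Krt80. Krt20, known from the intestine, and Krt19, known from ducts and simple linings, had none. Of the 3 basal keratins, Krt5 and Krt14 had one and Krt15 had none. Of the 4 stress and wound keratins, the type I genes Krt16 and Krt17 had one, and the type II genes Krt6a and Krt6b did not. Of the 12 keratins of suprabasal and other stratified layers, Krt10 alone had one (8.33%, 1.49 to 35.4). The 8 keratins of the inner root sheath and companion layer of the hair follicle had none (0%, 0 to 32.4), and the same held for the 15 hair keratins (0%, 0 to 20.4). The remaining 4 genes were Krt222, which had one, and Krt42, Krt88 and Krt90, which had none. The plot of promoter shares shows that the simple, basal and stress groups lay above the share of all genes with intervals that included it, and that the intervals of the suprabasal, inner root sheath and hair groups lay below it.

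**Figure D1:**
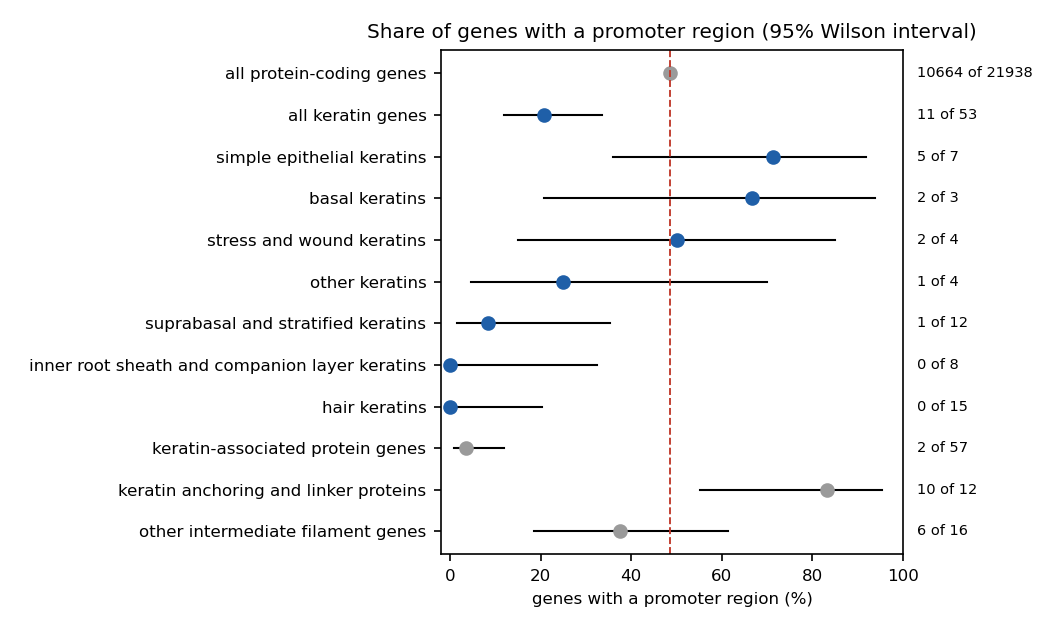
Share of genes with a promoter region (x axis, percent) for all protein-coding genes, all keratins, 7 role groups of keratins (blue) and 3 related gene lists (grey). Points are shares, lines are 95% Wilson intervals, the dashed line is the share of all protein-coding genes (48.6%), and the counts stand at the right. Simple epithelial keratins reached 71.4% and hair keratins 0%.

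Genes whose products work with keratins, and relatives of keratins, were counted in the same way. Of the 12 genes of anchoring and linker proteins, which tie keratin filaments to desmosomes and hemidesmosomes, 10 had a promoter region (83.3%, 55.2 to 95.3), and Itga6 and Eppk1 had none. Of the 57 Krtap genes, 2 had one (3.51%, 0.968 to 11.9), which were Krtap2-4 and Krtap13-1. Of the 16 other intermediate filament genes, 6 had one (37.5%, 18.5 to 61.4), namely Des, Vim, Lmna, Sync, Synm and Lmnb1. The share of all protein-coding genes was 48.6%. The lists also differed in GC content around the start, with medians of 69.7%, 41.7% and 62.5% in the order given.

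Keratin pairs were not alike in this respect. Both members of the pair Krt5 and Krt14 and of the pair Krt8 and Krt18 had a promoter region. For Krt6a with Krt16 and for Krt6b with Krt17, the type I partner had one and the type II partner did not, and the nearest region centre lay 1327 bases from the start of Krt6a and 15347 bases from that of Krt6b. For Krt7 with Krt19 it was the type II member, with the nearest centre 22175 bases from the start of Krt19. Krt4 and Krt13, the pair of inner mucosal surfaces, both lacked one, with the nearest centres at 5143 and 19160 bases. Krt1 had no region at its start, and that of Krt10 lay at a minor start.

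The region called at the promoter of Krt10 (chr11:99385912-99386403, 492 bases, GC content 64.4%) did not lie at the main start of the gene. Its centre was 60 bases upstream of a start that belongs to a short transcript alone, and it lies in exon 7 of the 8 exons of the principal transcript. At the principal start, the one shown above with its TATA box, no consensus region was called. With the principal start of each gene alone, 10 of 53 keratin genes (18.9%) had a promoter region, and none of the 12 suprabasal keratins was among them. Of the 53 genes, 49 have a single start in the annotation, so the choice of start touched few members.

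Each region that overlapped a keratin gene or its flanks of 5 kb was assigned to 1 keratin gene, namely, of the genes in whose reach it lay, the one with the nearest start. In 4 cases (regions of Krt14, Krt17, Krt77 and Krt79) a keratin outside this reach had a nearer start. This gave 48 regions, 20 in the type I and 28 in the type II cluster, on 29 genes. The other 24 genes had none. Of the 48 regions, 13 lay at a keratin promoter, 9 further upstream and 26 further downstream of the start. By their centres, 26 were intergenic, 9 intronic, 9 in coding exons and 4 in UTRs. The 11 genes with a promoter region held 25 of the 48 regions and the other 42 genes held 23. Of the 11 genes with at least 2 assigned regions, 7 had a promoter region.

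The nearest region lay farther from keratin starts than from protein-coding starts in general. The distance from a start to the nearest region centre had a median of 6543 bases over the 53 genes and ranged from 32 bases at Krt18 to 36101 bases at Krt12, the keratin of the cornea. Over all protein-coding genes the median was 192 bases. For 19 keratin genes (35.8%), 12 of the type I and 7 of the type II cluster, no centre lay within 10 kb, against 26.9% of all protein-coding genes. Among the 42 genes without a promoter region the shortest distance was 1327 bases, at Krt6a, and the median 9659 bases. The 11 genes with a promoter region each had a centre within 193 bases of a start, so no gene's class hung on the exact limit of 1000 bases.

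**Figure D2:**
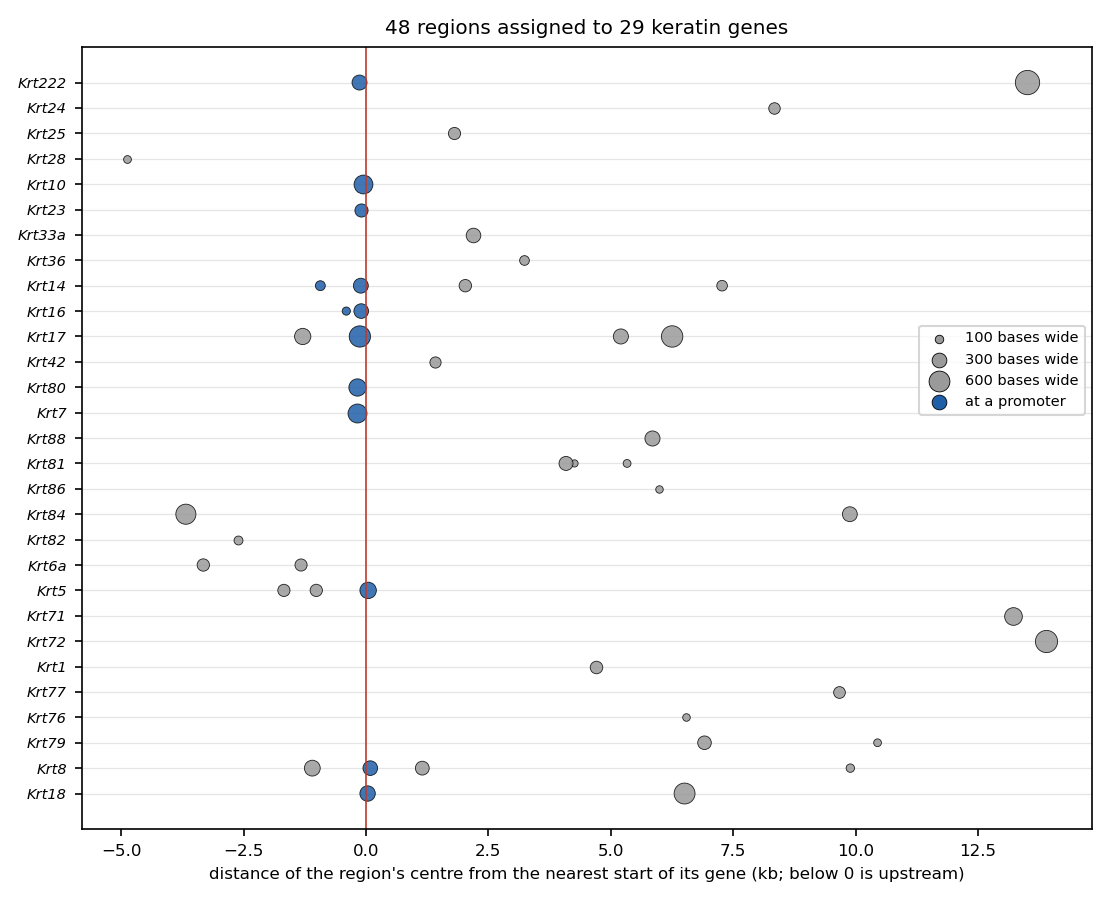
Distance of each assigned region's centre from the nearest start of its gene (x axis, kb, below 0 is upstream) for the 29 keratin genes with an assigned region (rows, in chromosome order, type I cluster first). Each circle is 1 region with its area scaled to its width, and blue marks the 13 regions at a promoter. Krt14 and Krt17 have 4 regions each, and Krt8 also has 4, while most genes have 1.

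The basal pair carried small groups of regions on its upstream side. Krt5 (chr15:101707070-101712898, minus strand) had 3 regions. The first, chr15:101712668-101713041, was 374 bases wide with its centre in the 5′ UTR, 43 bases downstream of the start. The others were 209 and 206 bases wide, with centres 1016 and 1677 bases upstream. Krt14 had 4 regions. One of 308 bases (chr11:100207501-100207808) was centred 106 bases upstream of the start and one of 136 bases 933 bases upstream, and both count as promoter regions. A region of 214 bases lay in an intron, 2028 bases downstream of the start, and one of 157 bases lay beyond the gene at 7271 bases, where the start of Krt9 was nearer at 7031 bases. Krt15, the third basal keratin, had no assigned region, and its nearest centre lay 32367 bases away.

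The pair of simple epithelia sits side by side at the end of the type II cluster. Krt8 had 4 regions. That at the start (chr15:102004247-102004543) was 297 bases wide and centred 87 bases downstream, in the 5′ UTR. One of 347 bases lay 1097 bases upstream, one of 265 bases in an intron at 1149 bases downstream, and one of 98 bases beyond the gene at 9890 bases. Krt18 (plus strand) had a region of 329 bases (chr15:102028048-102028376) centred 32 bases downstream of its start, and a region of 606 bases lay 6505 bases downstream, past the end of the gene. The starts of Krt8 and Krt18 are 23.7 kb apart and 5 regions lay between them, from 109 to 475 bases wide. Of the other genes listed under simple epithelia, Krt7, Krt80 and Krt23 had 1 region each. These were 496, 413 and 240 bases wide and centred 193, 185 and 106 bases upstream. Krt19 and Krt20 had none assigned.

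Of the stress keratins, Krt17 had the most extended set, with 4 regions. A region of 625 bases was centred 126 bases upstream of its start, one of 366 bases 1293 bases upstream, and regions of 315 and 634 bases lay 5204 and 6251 bases downstream, beyond the gene. The last of these was nearer to the start of Krt16 (5875 bases). Krt16 had regions of 296 and 93 bases at 98 and 403 bases upstream. Krt6a had regions of 204 and 211 bases at 1327 and 3323 bases upstream, both outside the promoter window, and Krt6b had no assigned region.

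Of the 23 keratins of the hair shaft, inner root sheath and companion layer, 10 had an assigned region, each away from the start, and 13 had none. Krt84 had a region of 559 bases 3679 bases upstream and another 9880 bases downstream, nearer to the start of the predicted gene Gm49425. Krt81 had 3 regions of 72 to 272 bases between 4084 and 5331 bases downstream. Those at chr15:101459457-101459528 and chr15:101459531-101459802 nearly touch, the first centred in a coding exon and the second in an intron. Krt71 and Krt72, of the inner root sheath, had regions of 433 and 682 bases at 13216 and 13887 bases downstream, each beyond the end of the gene. Krt33a, Krt25 and Krt28 had 1 region each, 2188 and 1805 bases downstream and 4872 bases upstream. Krt24, Krt42 and Krt76, from the other groups, also had 1 each, 8336, 1411 and 6543 bases downstream.

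The 3 widest assigned regions belonged to Krt222, Krt72 and Krt17, with 816, 682 and 634 bases. The first of these lies in a UTR of the neighbouring gene Smarce1, 458 bases from its start and 13508 bases from that of Krt222. The rule thus assigned to Krt222 a region near the start of another gene. Besides this one and the downstream region of Krt84, no assigned region was nearest to the start of a gene that is not a keratin.

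Regions at keratin promoters were narrower than promoter regions in general. The 13 had a median width of 311 bases (93 to 625), against 509 bases for the 10675 promoter regions of all protein-coding genes, whose middle 50% lay between 324 and 722 bases. The 35 assigned regions outside keratin promoters had a median of 211 bases (72 to 816), close to the 212 bases of all regions. Peak calling and merging both set the width of a region, and the difference was not tested. None of the 48 regions was mainly repeat sequence, the highest soft-masked share being 29.8%.

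**Figure D3:**
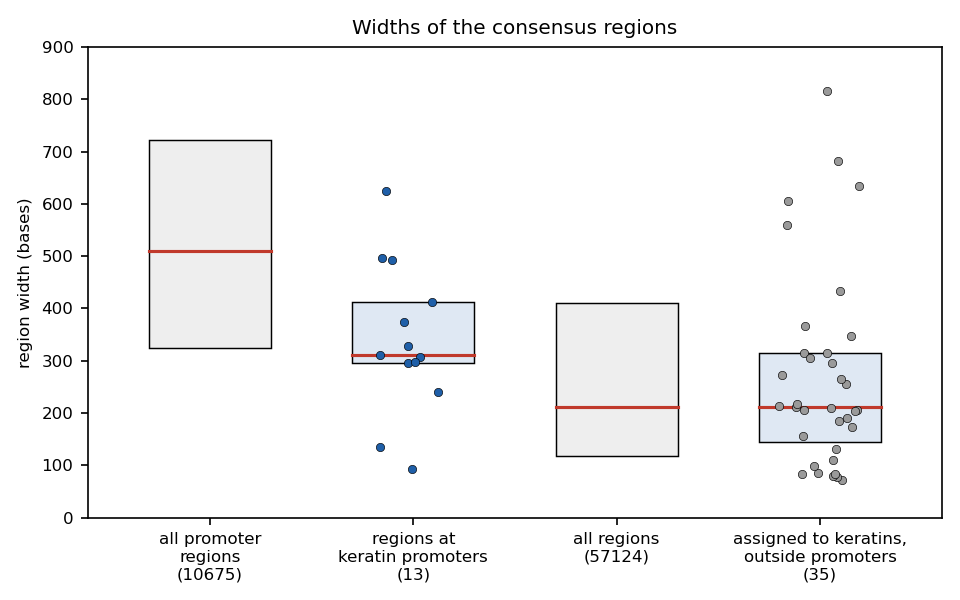
Width of consensus regions (y axis, bases) for all promoter regions, regions at keratin promoters, all regions and regions assigned to keratins outside promoters, with the number of regions below each. Boxes span the middle 50%, red lines are medians, and points are the single keratin regions. The medians are 509, 311, 212 and 211 bases.

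The 2 clusters differed in how densely they were covered. In the type I cluster, from 5 kb before its first to 5 kb after its last keratin gene, 32 regions lay in 1047 kb, or 30.6 per Mb, close to the 29.4 per Mb of chromosome 11. In the type II cluster 47 regions lay in 695 kb, or 67.7 per Mb, against 21.9 per Mb of chromosome 15 and 22.7 per Mb of all autosomes. Regions covered 0.760% of the bases of the type I cluster, below the 0.984% of chromosome 11, and 1.80% of those of the type II cluster, above the 0.673% of chromosome 15. Regions under 200 bases made up 17 of the 32 in the type I cluster (53.1%) and 15 of the 47 in the type II cluster (31.9%), and without them the densities were 14.3 and 46.1 per Mb. The clusters are also gene dense, with 65.9 and 41.8 protein-coding genes per Mb against 8.45 on the autosomes.

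Single stretches weighed on the densities of both clusters. Between Krt40 and Krt33a the type I cluster is interrupted by 468 kb with 41 protein-coding genes, 23 of them Krtap genes, in which 2 regions lay (4.27 per Mb) and 1 gene had a promoter region. Without this stretch the type I cluster held 30 regions in 579 kb, or 51.8 per Mb. The type II cluster had 67.7 per Mb with nothing left out, and 16 of its 47 regions lay in 82.7 kb at its end. Densities of regions of at least 200 bases were not computed without such stretches. The longest distance between neighbouring regions in the cluster, 399 kb, lay there, and 98.5% of all distances between neighbouring regions in the genome were shorter. The median of all was 14737 bases. In the type II cluster the longest distance was 111 kb, around Krt6b and Krt6a. Other long empty runs held Krt12 and Krt20 (78.5 kb), Krt39 and Krt40 (65.8 kb), and Krt13, Krt15 and Krt19 (65.7 kb) in the type I cluster, and Krt72, Krt73 and Krt2 (62.1 kb) in the type II cluster.

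Within both clusters the density of regions varied from segment to segment. The segments were chosen after the regions were seen and are a description. From Krt9 to 5 kb past Krt42, which takes in Krt14, Krt16 and Krt17, 12 regions lay in 88.1 kb (136 per Mb). From Krt6b to 5 kb past Krt5, 5 regions lay in 41.9 kb (119 per Mb). The regions centred 1016 and 1677 bases upstream of the start of Krt5 lie in these last 5 kb. From the end of Krt78 to 5 kb past Krt18, 16 regions lay in 82.7 kb (193 per Mb), and 10 of these were outside the reach of any keratin gene. Of the 16, 7 lay in the 42.4 kb between the ends of Krt78 and Krt8. Basal and simple keratins also lay in sparser segments. From Krt33a to Krt19, which takes in basal Krt15 and simple Krt19, 4 regions lay in 137 kb (29.1 per Mb) with 10 keratin genes. From 5 kb before Krt222 to Krt40, with Krt20 and Krt23, the density was 38.0 per Mb. It was 68.3 per Mb from 5 kb before Krt80 to Krt7. The segments from Krt87 to Krt75 and from Krt71 to Krt78 had 56.0 and 40.8 per Mb. Both of these and the segment from Krt33a to Krt19 were taken without an added 5 kb.

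**Figure D4:**
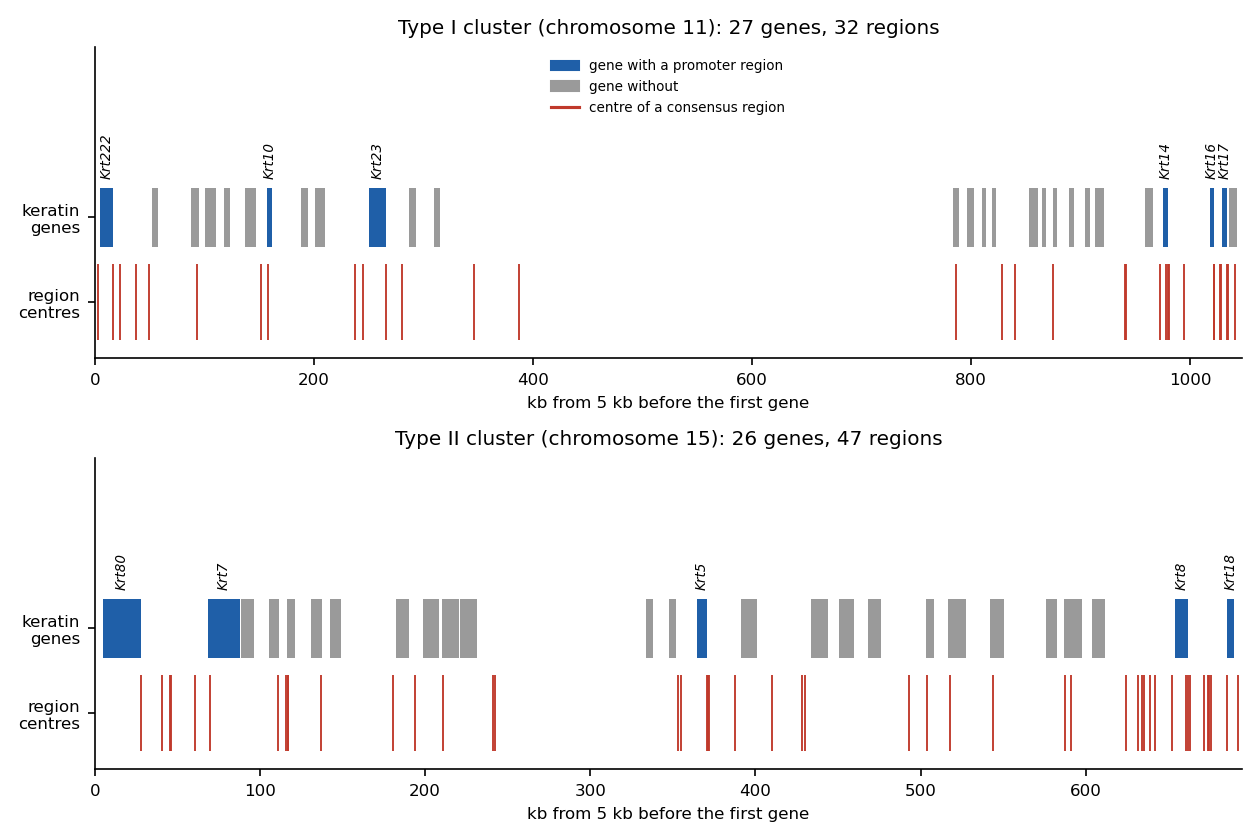
Keratin genes (boxes, blue with and grey without a promoter region) and centres of consensus regions (red lines) along both clusters, with distance from 5 kb before the first gene on the x axis in kb. The type I cluster has 32 regions in 1047 kb with an empty run of 399 kb, and the type II cluster has 47 in 695 kb.

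Regions in coding exons sat at the far end of the genes. In 9 of the 48 regions the centre lay in a coding exon, and in 8 of these it was the last exon. These were exon 9 of 9 in Krt1, Krt77, Krt79, Krt81, Krt86 and Krt90, exon 7 of 7 in Krt36 and exon 5 of 5 in Krt88. The ninth was the region of Krt10, in exon 7 of 8. The region counted for Krt81 nearly touches another that is centred in an intron. Over the genome, 2600 regions were centred in a coding exon of a gene with at least 2 exons, and 346 of these (13.3%) were in the last exon. Outside the first exon it was 344 of 1217 (28.3%). The region in the exon of Krt90 was assigned to Krt82, whose start was nearer.

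Most of the keratin exon regions were rich in G and C beside the median of 53.9% over all regions. The GC content was 72.8% in Krt1, higher than in 95.2% of all regions, 71.1% in Krt79 and 69.6% in Krt77, and the lowest was 53.4% in Krt36, higher than in 47.8% of all regions. The region of Krt1 held 21 CpG dinucleotides in 217 bases, and that of Krt10 held 57 in 492 bases. Widths ran from 72 bases in Krt81 to 492 in Krt10. The part of base composition in the calling of these regions was not tested.

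The starts themselves differed in composition. In the 300 bases around the principal start (250 before and 50 after), keratin genes had a median GC content of 50.3% and a median of 5 CpG dinucleotides, against 56.0% and 12 for all protein-coding genes. The 11 keratin genes with a promoter region had a median GC content of 57.3% and the 42 without one 49.0%. The highest among the 11 were Krt7 (66.0%, 21 CpG) and Krt80 (64.0%, 9 CpG), and the lowest was Krt10 (42.0%, 2 CpG), whose region is not at this start. High GC content was also found without a region, as at Krt87 (63.3%, 23 CpG) and Krt79 (62.0%, 3 CpG).

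**Figure D5:**
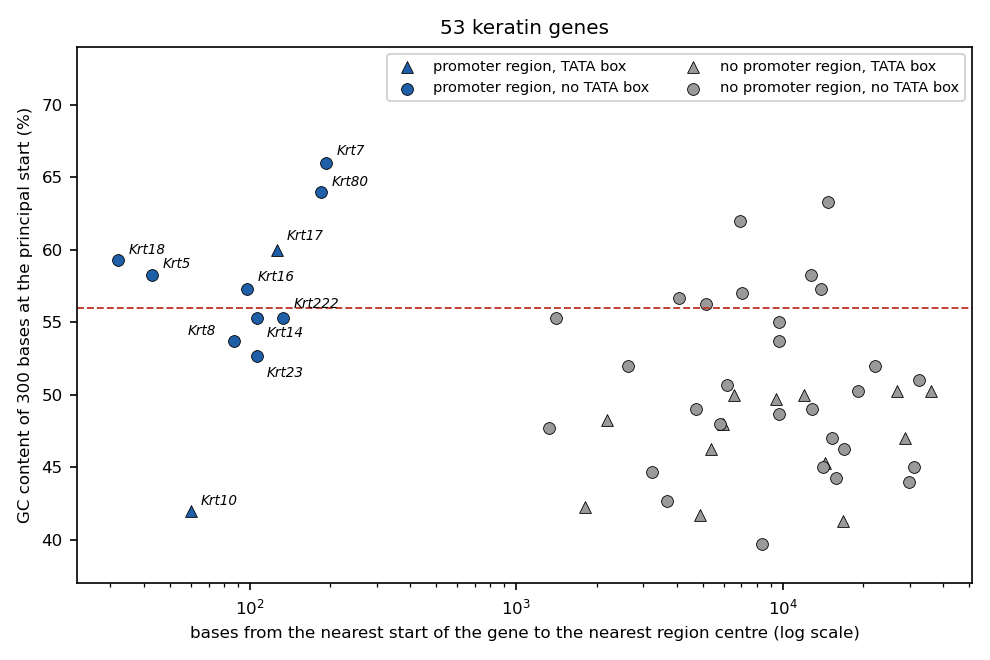
GC content of the 300 bases at the principal start (y axis, percent) against the distance from the nearest start of the gene to the nearest region centre (x axis, bases, log scale) for the 53 keratin genes. Blue marks genes with a promoter region, triangles mark a TATA box 40 to 15 bases before the principal start, and the dashed line is the median GC content of all protein-coding genes (56.0%). Krt10 stands apart at 42.0%, with its region at another start.

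A TATA box was frequent at keratin starts. The letters TATAAA occurred in the 300-base start window of 23 of 53 keratin genes (43.4%), against 8.66% of all protein-coding genes, with 18 of 27 (66.7%) in the type I and 5 of 26 (19.2%) in the type II cluster. They lay wholly from 40 to 15 bases before the start, the usual place of a TATA box, in 15 keratin genes (28.3%). Over all protein-coding genes it was 2.45%. Of these 15, the genes Krt10 and Krt17 had a promoter region at any start, and at the principal start it was Krt17 alone. Of the 38 keratin genes without such a box, 9 had a promoter region (23.7%). Over all protein-coding genes the shares were 19.7% of the 538 genes with and 49.3% of the 21400 genes without the box.

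Over all assigned regions, the AP-1 and KLF motifs were near the level of all regions. At the 13 keratin promoter regions each share rests on 3 matches or fewer, and differences there were not tested. In the 200 bases around the centre, the AP-1 motif occurred in 9 of the 48 assigned regions (18.8%) against 18.5% of all regions. The 9 were 2 regions of Krt14 and 1 each of Krt5, Krt8, Krt16, Krt17, Krt42, Krt71 and Krt76. At keratin promoters it was 3 of 13 (23.1%), from Krt14 and Krt16, against 4.26% of all promoter regions, and elsewhere it was 6 of 35 (17.1%) against 21.8% of all regions outside promoters. The KLF motif occurred in 5 of 48 (10.4%) against 10.7%, among them the promoter region of Krt18, which gave 1 of 13 at keratin promoters (7.69%) against 15.7% of all promoter regions. The letters of the TATA box, here on either strand, occurred in 4 of 48 (8.33%) against 5.96%. At keratin promoters it was 2 of 13 (15.4%), those of Krt16 and Krt8, against 2.86%. The start window of Krt8 held no TATAAA on the gene's strand, so its match is not a TATA box at the usual place. Krt17 had the box at the usual place before its start, but the 200 bases around the centre of its promoter region held no match. The ETS motif occurred in 2 of 48 (4.17%) against 2.46%, in Krt84 and Krt77. None of the 13 windows at keratin promoters held the ETS motif, against 2.15% of those at all promoter regions. A window of 200 bases covers only part of a wider region and reaches beyond a narrower one. A match is a description of letters and shows no binding. The AP-1 match printed in the intron region of Krt8 lies outside the central 200 bases and is not counted. The same holds for the ETS match printed in the promoter stretch of Krt8.

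Copies of keratin genes may limit what a missing region means, because reads that align to several places had been removed. Within 500 bases of the principal start, the percentage of 31-base words with a single occurrence in the genome had a median of 98.6% and ranged from 65.4% at Krt33a to 100%. It was under 80% at 11 of 53 starts. Of these, Krt14, Krt16 and Krt8 had a promoter region, and Krt33a, Krt33b, Krt34, Krt31, Krt81, Krt86, Krt6b and Krt6a did not. The 48 assigned regions had shares from 83.9% to 100%. Thus 8 of the 42 starts without a promoter region, and 3 of the 11 with one, were under 80%. The paired-end reads were longer than these words, so a read pair can align to a single place where some words do not. The part of repeated sequence in the missing regions was not tested.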

How the data were processed

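ATAC-seq reads had been aligned by the authors to mm10 with Bowtie2, mitochondrial, multimapping and low-quality reads removed with SAMtools and duplicates with Picard, broad peaks called with MACS2 and merged with bedtools, and the reads in each merged region counted (featureCounts 2.0.3). The sources used here do not say if calling was done on single or on pooled samples. From the deposited table, only the start, end and length of each region were used, in bases. Merged starts may count from 0, which would shift a start by 1 base. The 8 columns of read counts in the deposited file carry names that match no sample label and were not used in any step, so depth and normalised counts were not computed, groups were not compared and no differential test was run.

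GENCODE M21 basic protein-coding genes gave starts. The principal start came from the APPRIS tag, then CCDS, then length. Each region overlapping a keratin gene or its 5 kb flanks went to the nearest start among the keratin genes in whose reach it lay. Shares have 95% Wilson intervals (scipy 1.17.1). The promoter and assignment rules were tested on planted regions. Of the gene lists, 2 genes (Krt74 and Krt85) were not annotated under these symbols. Named were keratins with a promoter or assigned region, Krt5, Krt14, Krt8, Krt18, Krt1 and Krt10, the 3 widest regions and, of other lists, the genes lacking a promoter region or, where fewer, those having one. Other genes named were chosen after their values were seen. The members and lists were chosen with earlier results of these data known.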

Additional observations from a re-analysis of the deposited data

How the results depend on the processing

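No paired analysis was possible because no column could be tied to a sample and no test was made, and leaving out a replicate was not possible for the same reason. The share of keratin genes with a promoter region was 20.8% and stayed between 18.9% and 22.6% under the 6 alternatives tried (all transcripts, regions of at least 200 bases, regions under 50% repeat, overlap with a start, overlap within 1000 bases of a start, and the principal start alone). The highest value came from counting the starts of all transcripts, which added Krt33a. The alternative with the principal start and those on density were chosen after seeing the data. The number of regions assigned to keratin genes fell from 48 to 27 when only regions over the gene body counted, and rose to 60 with flanks of 10 kb, as the construction implies. It was 42 when regions nearer to any other protein-coding start were left out. With regions of at least 200 bases, the density of the type I cluster fell from 30.6 to 14.3 per Mb and that of the type II cluster from 67.7 to 46.1 per Mb, since 53.1% and 31.9% of their regions are narrower. The other alternatives moved no share beyond its Wilson interval and no count by over 1.5 times. Widths and distances were computed under 1 setting. Depth, which sets how many weak regions are called, was not analysed here, and a missing region does not show closed chromatin.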
